A study of Mus musculus with 4 samples.

Results

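The genes described here are 8 genes that bind, sense or move zinc: the metallothioneins *Mt1*, *Mt2* and *Mt3*, the transcription factor *Mtf1*, the zinc exporter *Slc30a1*, its relative *Slc30a10*, and the importers *Slc39a4* and *Slc39a5*. They were chosen by name from what they are known to do, out of 36144 genes in the count table, and all 8 were measured. Bulk RNA-seq was done on colonic organoids, which are cultures in which the stem cells of the mouse colon and their progeny grow as 3-dimensional structures. There were 4 libraries: untreated organoids at 48 h and 72 h, and organoids given 2 mM sodium butyrate for 48 h and 72 h. All were at passage 3 and are labelled as coming from wild-type male mouse colon at 24 weeks of age. The study's own legend instead names a Hes1-GFP reporter line and gives 1 mouse as the source of the organoids. By its methods, crypts came from the proximal colon. All 4 were grown in the same medium, with EGF, Noggin, R-spondin, the GSK3 inhibitor CHIR99021, the ROCK inhibitor Y-27632 and the B27 and N2 supplements. Each condition is 1 library, so that no difference below can be set against the spread between replicates, and no p-value was computed.

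Metallothioneins are small cysteine-rich proteins that bind zinc and copper ions and hold free zinc low in the cell. MTF-1, the product of *Mtf1*, is a zinc finger protein that senses free zinc, enters the nucleus and binds metal response elements in the promoters of *Mt1*, *Mt2* and *Slc30a1*, so that their transcripts are commonly used as a readout of zinc in the cell. The SLC30 (ZnT) family moves zinc out of the cytosol and the SLC39 (ZIP) family moves it in. In the intestine, ZIP4 (*Slc39a4*) takes up dietary zinc at the apical membrane, ZIP5 (*Slc39a5*) lies on the basolateral side, and ZnT1 (*Slc30a1*) exports zinc into the circulation. ZnT10 (*Slc30a10*) is best known as a manganese exporter. Butyrate, a product of microbial fermentation in the colon, is both a fuel of colonocytes and an inhibitor of histone deacetylases.

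The sequence that MTF-1 reads is shown first, because it is the element known to link *Mt1*, *Mt2* and *Slc30a1*. Promoters were taken from RefSeq (build GRCm38.p6), as 250 bases before and 50 bases after the start of transcription, and were searched on both strands for the core of the metal response element, TGCACNC or TGCGCNC. Of the 8 genes, 7 had an entry and *Slc39a4* had none. Below, 280 bases of 3 promoters run 5′ to 3′ on the gene's strand, with the matches in capitals. They are those of *Mt1* (chr8:94178839-94179118, plus strand), *Mt2* (chr8:94172368-94172647, plus strand) and *Slc30a1* (chr1:191906531-191906810, plus strand).
Mt1: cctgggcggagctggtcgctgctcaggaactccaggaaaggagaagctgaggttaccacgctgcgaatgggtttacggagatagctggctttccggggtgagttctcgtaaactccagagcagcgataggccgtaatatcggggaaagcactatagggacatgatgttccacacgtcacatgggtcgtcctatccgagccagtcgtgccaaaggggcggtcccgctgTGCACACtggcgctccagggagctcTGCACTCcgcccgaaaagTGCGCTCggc
Mt2: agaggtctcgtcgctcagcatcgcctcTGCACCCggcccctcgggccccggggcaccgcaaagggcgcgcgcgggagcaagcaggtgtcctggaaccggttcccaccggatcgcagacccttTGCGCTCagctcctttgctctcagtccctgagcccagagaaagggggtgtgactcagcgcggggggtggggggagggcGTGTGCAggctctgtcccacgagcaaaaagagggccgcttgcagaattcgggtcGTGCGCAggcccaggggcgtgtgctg
Slc30a1: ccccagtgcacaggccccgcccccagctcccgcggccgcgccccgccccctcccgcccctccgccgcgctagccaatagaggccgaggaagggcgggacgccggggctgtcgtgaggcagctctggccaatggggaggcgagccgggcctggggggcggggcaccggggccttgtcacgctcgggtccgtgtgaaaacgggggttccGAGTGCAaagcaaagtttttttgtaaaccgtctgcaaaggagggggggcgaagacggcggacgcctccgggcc
*Mt1* had 3 matches, of which 1 lay before the RefSeq start and 2 after it, at positions −23, 3 and 21, all on the strand of the gene. Of the 3 GENCODE transcripts of *Mt1*, 1 held the first bases after this start. Where the other transcripts start relative to the matches was not examined. *Mt2* had 4, at −223 and −128 on the strand of the gene and at −50 and 5 on the opposite strand. The RefSeq start of *Mt2* lies upstream of the start in GENCODE, and 0 GENCODE transcripts of *Mt2* held its first bases. *Slc30a1* had 2 on the opposite strand, at −43 and at 31, the latter beyond the bases shown. Positions count from 1 at the first transcribed base and give the first base of the match. *Mt3* had 1 match (28), *Mtf1* had 0, and *Slc30a10* had 3, 2 of which overlap each other (−233 and −232) and 1 at −73. *Slc39a5* has 2 starts, with 1 match (−129) at the upstream and 0 at the downstream start. Of all 32851 promoters of this length, 25.7% held at least 1 stretch with a match, 6.14% at least 2, 1.31% at least 3 and 0.3% at least 4. A match of a short motif describes letters in the window and is no evidence of a bound site.

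**Figure D1:**
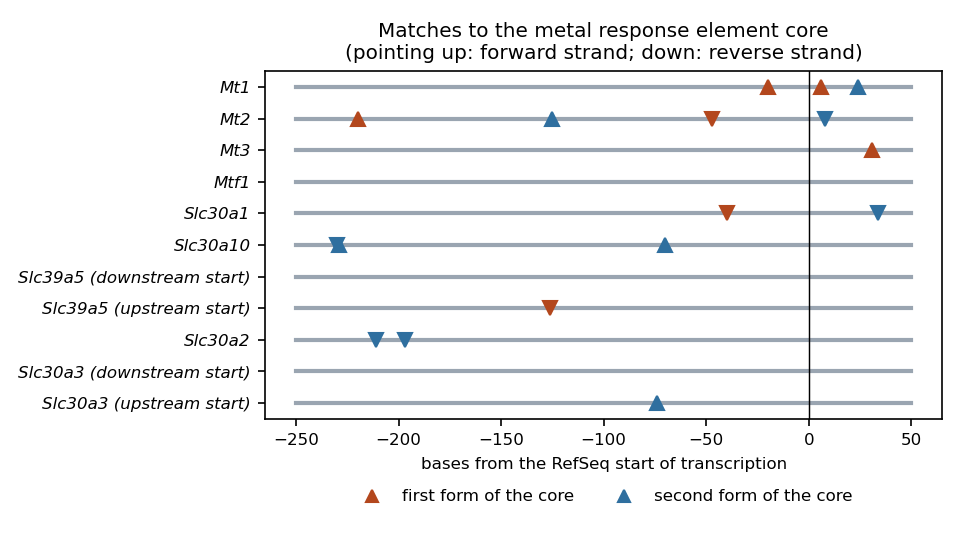
Matches to the core of the metal response element around the RefSeq start of transcription of 7 of the 8 genes and of *Slc30a2* and *Slc30a3*; the horizontal axis gives bases from the start, grey lines are the windows searched, upward triangles are matches on the strand of the gene and downward triangles matches on the other strand. *Mt2* has 4 matches, *Mt1* and *Slc30a10* have 3 each, 2 of those of *Slc30a10* overlapping, and *Mtf1* has 0.

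The total count was between 20790225 and 24207840 per library, and a floor of 3 counts corresponded to 0.124 to 0.144 CPM. Mitochondrial genes took 14.1% to 18.4% of the counts. Counts were divided by DESeq2 size factors (0.926 to 1.10) and are called normalised counts below. Log2 fold changes were taken after adding a pseudocount of 1, and their 95% intervals are exact Clopper-Pearson intervals of the pair of counts. The intervals cover counting error only, since reads lacking molecular identifiers can be copies of 1 molecule and organoid cultures vary beyond counting. The epithelial markers *Epcam*, *Cdx1*, *Cdx2*, *Vil1*, *Krt8* and *Krt19* summed to between 104599 and 119914 normalised counts per library, and all 6 passed the count filter. With butyrate at 72 h all 6 were lower, each with an interval below 0, which held for 3695 of all 13977 genes that passed this filter. The median log2 fold change of the 6 was −0.21 at 72 h and 0.02 at 48 h, beside −0.21 and 0.22 for the 8 zinc genes. The part of these 6 markers in the zinc genes' values was not tested.

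*Mt1* and *Mt2* were higher with butyrate at 48 h and lower with butyrate at 72 h. *Mt1*, at chr8:94179082-94180327 in the GENCODE annotation of GRCm38, had 6920 normalised counts without and 9519 with butyrate at 48 h. At 72 h it had 7417 without and 6092 with butyrate. The 2 butyrate libraries were therefore the highest and the lowest of the 4, with both untreated libraries between them. As a log2 fold change of butyrate over untreated, this was 0.46 after 48 h (0.42 to 0.50) and −0.28 after 72 h (−0.33 to −0.23). The change at 72 h minus that at 48 h was −0.74 (−0.81 to −0.68).

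*Mt2*, which lies upstream of *Mt1* on the same strand (chr8:94172664-94173568), had the same order at 48 h with a larger difference. Its normalised counts were 3344 without and 5324 with butyrate at 48 h, against 2905 and 2485 at 72 h. Again the highest and the lowest value both came from butyrate. Its log2 fold change came to 0.67 after 48 h (0.61 to 0.73) and −0.22 after 72 h (−0.30 to −0.15), and the later change minus the earlier one was −0.90 (−0.996 to −0.796). Other genes share 58.1% of the 31-base words of *Mt2*, nearly all of them *Gm45774*, an antisense gene that overlaps *Mt2* and is not in the count table, and a few *Pip5k1a*. Whether the counting used strand is not stated, so reads of *Mt2* and *Gm45774* cannot be told apart. No such words of *Mt1* are shared with another gene.

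Because *Mt1* and *Mt2* encode proteins of like function, their counts can be added. Together they made up 0.0465% of all counts without and 0.0676% with butyrate at 48 h, against 0.0443% and 0.0382% at 72 h. Within each library there were more *Mt1* than *Mt2* counts, by 2.07 times (1.99 to 2.16) without and 1.79 times (1.73 to 1.85) with butyrate at 48 h. At 72 h the ratio was 2.55 (2.45 to 2.67) without and 2.45 (2.34 to 2.57) with butyrate. The intervals of the 2 libraries at 48 h do not overlap, and those at 72 h do. Between the times the ratio was higher at 72 h in untreated and in treated organoids alike, with no overlap of the intervals in either. In bulk RNA, more transcript per cell and more cells that carry the transcript cannot be told apart.

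*Mt3*, the metallothionein known chiefly from brain, was rare, with raw counts of 10 without and 56 with butyrate at 48 h, against 14 and 25 at 72 h. Both butyrate libraries lay above both untreated ones. The log2 fold change of 2.21 (1.33 to 3.45) at 48 h, or 4.62-fold, was the largest among the 8 genes. At 72 h the value was 0.92, with 0 inside the interval (−0.03 to 2.02). The neuronal and glial markers *Elavl4*, *Tubb3*, *Gfap* and *S100b* summed to 78.7 normalised counts without and 49.9 with butyrate at 48 h, against 72.1 and 85.3 at 72 h. Of these 4 markers, 2 passed the count filter, and *S100b* was at 0 in every library. With butyrate, 0 of the 2 were higher at 48 h and 2 of the 2 at 72 h, 0 of them with an interval above 0. The part of such cells in the values of *Mt3* was not tested.

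*Mtf1* followed the direction of *Mt1* and *Mt2* with smaller changes. Its normalised counts were 697 without and 816 with butyrate at 48 h, against 655 and 569 at 72 h, so that the butyrate libraries were again the highest and the lowest. On the log2 scale butyrate over untreated was 0.23 after 48 h (0.08 to 0.37) and −0.20 after 72 h (−0.37 to −0.04). *Mtf1* shares 7.8% of its 31-base words with *1110065P20Rik*, which lies on the opposite strand. Transcript level does not report the activity of MTF-1, which is set by zinc binding and entry into the nucleus.

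**Figure D2:**
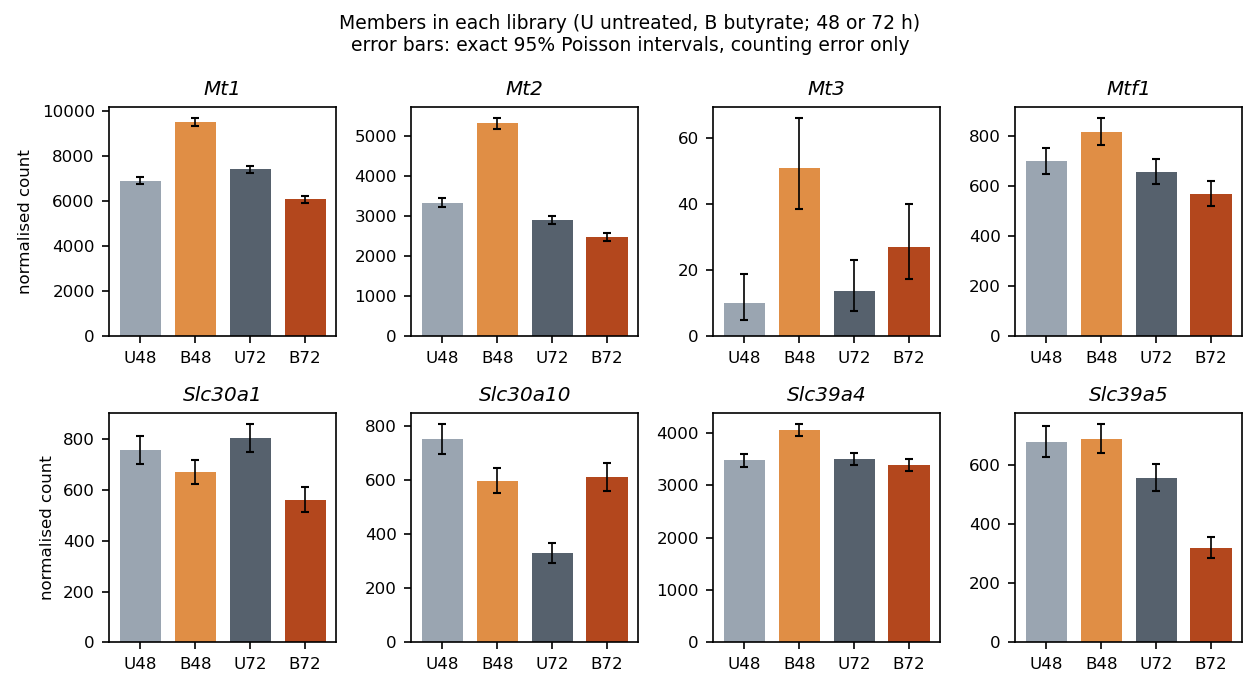
Normalised counts of each of the 8 genes in the 4 libraries, 1 panel per gene with its own vertical axis starting at 0; bars are single libraries and lines are 95% intervals of counting error. *Mt1*, *Mt2*, *Mtf1*, *Slc39a4* and *Slc39a5* are highest with butyrate at 48 h and lowest with butyrate at 72 h, whereas *Slc30a10* is lowest in untreated organoids at 72 h.

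The exporter *Slc30a1* is the other well known target of MTF-1, but it was not higher with butyrate at 48 h. It had 757 normalised counts without and 669 with butyrate at 48 h, against 802 and 559 at 72 h. Both butyrate libraries lay below both untreated ones. The corresponding log2 fold changes were −0.18 after 48 h (−0.33 to −0.03) and −0.52 after 72 h (−0.68 to −0.36), and the later minus the earlier change was −0.34 (−0.56 to −0.12). The direction of *Slc30a1* was thus opposite to that of *Mt1* and *Mt2* at 48 h and the same at 72 h. It shares 8.4% of its 31-base words with *1700034H15Rik*.

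*Slc30a10* had butyrate changes opposite in sign to those of *Mt1* and *Mt2* at both times. It had 752 normalised counts without and 597 with butyrate at 48 h, against 330 and 610 at 72 h. The untreated library at 72 h stood below the other libraries, which lay between 597 and 752. Butyrate over untreated on the log2 scale was −0.33 after 48 h (−0.49 to −0.18) and 0.89 after 72 h (0.69 to 1.09), a difference of 1.22 (0.97 to 1.46) between the times. In untreated organoids it was lower at 72 h than at 48 h by a log2 ratio of −1.19 (−1.38 to −1.0). With butyrate the same ratio was 0.03 (−0.13 to 0.20), so the 2 treated libraries differed by no more than counting error. *Slc30a10* shares 8.9% of its 31-base words with other genes, chiefly *Gm2061*.

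Of the importers, *Slc39a4* varied least. It had 3473 normalised counts without and 4049 with butyrate at 48 h, against 3504 and 3383 at 72 h, with the butyrate library at 48 h above the rest. This gave a log2 fold change of 0.22 after 48 h (0.16 to 0.29) and −0.05 after 72 h (−0.12 to 0.02). *Slc39a5* was lower with butyrate at 72 h alone. It had 677 without and 687 normalised counts with butyrate at 48 h, against 556 and 319 at 72 h, and the last library was the lowest of the 4. Its log2 fold change was 0.02 after 48 h (−0.13 to 0.17) and −0.80 after 72 h (−1.01 to −0.60), the latter being the largest decrease of the 8 genes at that time. Both importers were thus highest with butyrate at 48 h and lowest with butyrate at 72 h, as were *Mt1*, *Mt2* and *Mtf1*. However, the interval of *Slc39a4* at 72 h and that of *Slc39a5* at 48 h included 0. *Slc39a5* overlaps *Ankrd52* in position, but the genes share no 31-base words.

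**Figure D3:**
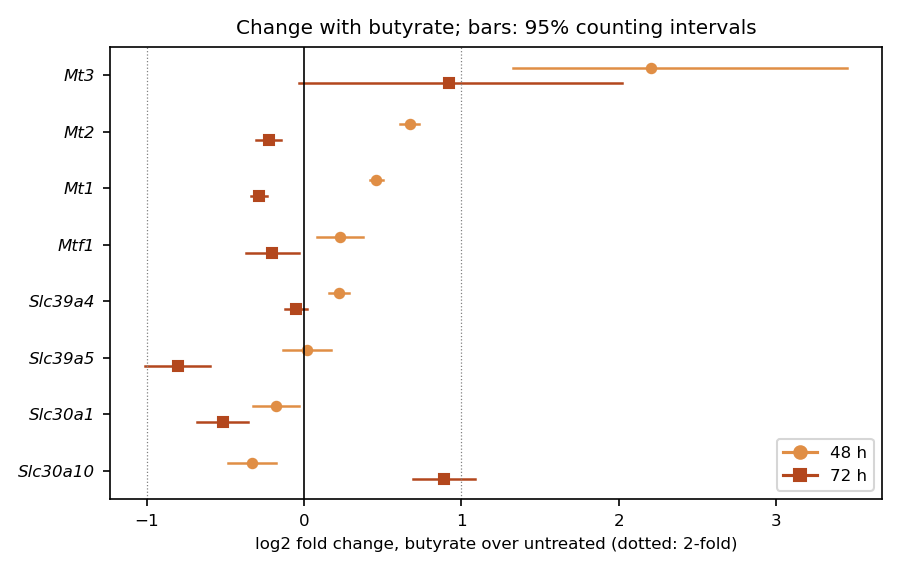
Log2 fold change of butyrate over untreated for the 8 genes at 48 h and 72 h; points are the change between 1 library and 1 library, and lines are 95% intervals of counting error. *Mt1*, *Mt2* and *Mtf1* lie above 0 at 48 h and below 0 at 72 h, and *Slc30a10* lies below 0 at 48 h and above 0 at 72 h.

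The 8 genes were then set against all 13977 genes that passed the count filter (above 10 counts in 2 or more libraries), which all 8 did. At 48 h, 1 of the 8 genes (*Mt3*) was at least 2-fold higher with butyrate, beside 6.94% of all genes, and 10.0% of all genes were past 2-fold in either direction. At 72 h, 0 of the 8 were past 2-fold in either direction, beside 8.31% of all genes, 4.53% being higher. By size of change the genes thus did not stand out from the table. Their median log2 fold change was 0.22 at 48 h and −0.21 at 72 h, beside −0.01 and 0.00 for all genes tested. At 48 h, 6 were higher and 2 lower, and at 72 h 2 were higher and 6 lower, while of all genes 6811 were higher at 48 h and 6946 lower at 72 h.

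Some of the genes turned in direction between the times. *Mt1*, *Mt2* and *Mtf1*, 3 of the 8, were higher at 48 h and lower at 72 h with both intervals excluding 0, which held for 4.54% of all genes. *Slc30a10*, 1 of the 8, was lower at 48 h and higher at 72 h in the same sense, as were 5.33% of all genes. Since intervals narrow as counts grow, the shares were also taken among the 7205 genes that averaged 500 or more normalised counts, which 7 of the 8 genes reached. They were 6.32% for higher then lower and 8.13% for lower then higher. The comparisons at 48 h and at 72 h share no library, but the genes were proposed with earlier results of these libraries known, and these shares are a description.

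Over time within a treatment, *Slc30a10* moved most in untreated organoids, and 7 of the 8 genes were lower at 72 h than at 48 h with butyrate. In untreated organoids, 1 of the 8 genes (*Slc30a10*, lower) was past 2-fold between 48 h and 72 h, beside 4.49% of all genes, and the median log2 change was −0.04. With butyrate, 2 of the 8 (*Mt2* and *Slc39a5*, both lower) were past 2-fold, beside 8.62% of all genes, and the median was −0.58. The log2 change from 48 h to 72 h with butyrate was −0.64 (−0.69 to −0.60) for *Mt1*, −1.10 (−1.17 to −1.03) for *Mt2* and −1.11 (−1.31 to −0.91) for *Slc39a5*. It was −0.52 for *Mtf1*, −0.26 for *Slc30a1*, −0.26 for *Slc39a4* and −0.89 (−1.65 to −0.21) for *Mt3*. These 7 genes all had intervals below 0, as did 31.4% of all genes and 32.7% of those that averaged 500 or more normalised counts, whereas the interval of *Slc30a10* included 0. These changes share their libraries with the changes at 48 h and 72 h above and are not independent of them.

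Levels were compared between genes as scaled CPM per kb of exon. *Mt1* had the highest mean level over the 4 libraries, 268 (218 to 341 from the lowest to the highest library), and *Mt2* had 266 (188 to 404). These neighbours do not differ beyond their spread. *Slc39a4* came next with 51.7 (48.5 to 58.1), below every value of *Mt1* and *Mt2*. *Slc39a5* (11.2, 6.38 to 13.8), *Slc30a1* (5.92, 4.76 to 6.81), *Slc30a10* (4.37, 2.52 to 5.74) and *Mtf1* (3.42, 2.85 to 4.08) followed, each overlapping the next. With the mean transcript length in place of the union of exons, *Mtf1* (8.79) lay above *Slc30a10* (4.37), and *Slc39a4* had 103. *Mt3* was last with 1.06 (0.43 to 2.12), below every value of *Mtf1*. The length used for *Mt1*, 1246 bases, is the whole of its annotated gene, while that of *Mt2* is 588 bases, so a level per kb understates the short *Mt1* mRNA.

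**Figure D4:**
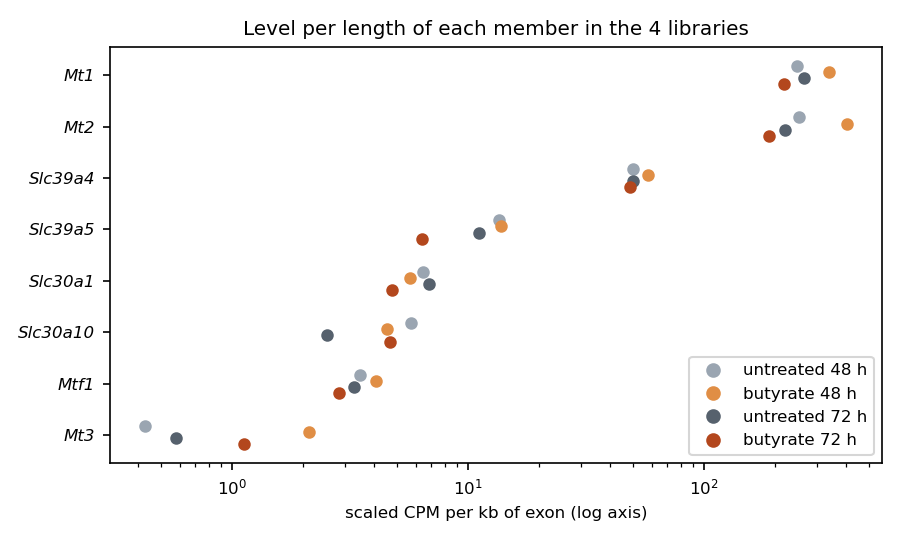
Level of the 8 genes in scaled CPM per kb of exon, on a log10 axis, ordered by the mean; points are single libraries, coloured by condition. *Mt1* (218 to 341) and *Mt2* (188 to 404) overlap, *Slc39a4* lies at 48.5 to 58.1 and *Mt3* lies lowest.

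The other genes of zinc transport showed no common shift. Of 21 such genes (8 ZnT, 12 ZIP and *Mt4*), 18 passed the filter, with a median log2 fold change of 0.00 after 48 h and −0.02 after 72 h. *Slc39a12* was at 0 in every library, and *Mt4*, a metallothionein of stratified epithelia, had 4 and 14 counts without and with butyrate at 48 h, against 6 and 2 at 72 h. Past 2-fold were 2 genes at 48 h, both higher, and 3 at 72 h, 2 higher and 1 lower, beside 10.0% and 8.31% of all genes. Of the higher genes, *Slc30a3* had to differ in order to pass the filter, so the count rests in part on the filter. The higher genes were the same at both times, *Slc30a2* and *Slc30a3*, which encode ZnT2 and ZnT3, transporters that load zinc into vesicles.

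*Slc30a2* had raw counts of 49 without and 221 with butyrate at 48 h, against 15 and 138 at 72 h, so that both treated libraries stood above both untreated ones. Its log2 fold change reached 1.98 after 48 h (1.55 to 2.48) and 3.25 (2.56 to 4.21), or 9.49-fold, after 72 h. *Slc30a3* had 4 counts without and 52 with butyrate at 48 h, against 5 and 29 at 72 h, and passed the filter through its treated libraries alone. For this gene the log2 fold change was 3.24 after 48 h (2.09 to 5.46) and 2.45 after 72 h (1.28 to 4.39). With a pseudocount of 5 these were 2.52 and 1.87. Among the 13977 genes, *Slc30a2* ranked 272nd from the top at 48 h and 34th at 72 h. *Slc30a2* had 2 matches to the metal response element core in the window around its RefSeq start, at −214 and −200. In GENCODE the gene begins upstream of this window, at chr4:134343181, so both matches lie within the annotated gene. Per kb, both were low, at means of 1.30 and 0.34 CPM per kb.

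*Slc39a2* (ZIP2) was the gene past 2-fold in the lower direction at 72 h, with 21 counts without and 9 with butyrate. That log2 fold change of −1.02 had an interval of −2.40 to 0.10 and was within 2-fold with total count scaling (−0.97) or a pseudocount of 5 (−0.81), and at 48 h the counts were 44 and 43. The most abundant genes of each family differed less. *Slc39a1* (ZIP1) had log2 fold changes of 0.00 and −0.15 at the earlier and the later time and *Slc39a7* (ZIP7, a zinc channel of the endoplasmic reticulum) of −0.01 and −0.11, *Slc30a4* (a vesicular transporter) of 0.04 and −0.21, and *Slc30a5* (of the secretory pathway) of −0.13 and −0.14. Of the rest, 3 further ZIP genes are named after their values were seen. *Slc39a8*, which encodes a zinc and manganese importer, was lower with butyrate at both times, by log2 fold changes of −0.68 (−0.77 to −0.59) and −0.28 (−0.37 to −0.20). *Slc39a14*, which encodes another importer of both metals, was higher at both times, by 0.48 (0.39 to 0.57) and 0.38 (0.28 to 0.48). *Slc39a11* was higher at 48 h by 0.86 (0.77 to 0.96) and at 0.04 at 72 h.

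**Figure D5:**
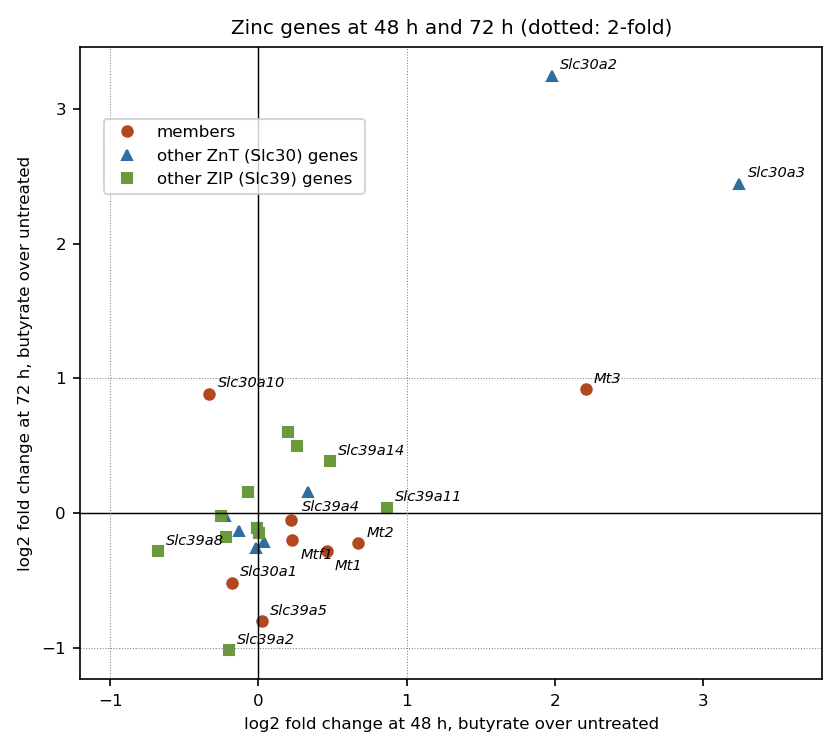
Log2 fold change of butyrate over untreated at 72 h (vertical) against that at 48 h (horizontal), 1 point per gene that passed the filter, for the 8 genes (circles), other ZnT genes (triangles) and other ZIP genes (squares); dotted lines mark 2-fold. *Slc30a2* and *Slc30a3* are past 2-fold at both times, *Mt3* at 48 h, and *Slc30a10* is the circle at upper left.

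Genes that handle copper and iron were read beside those for zinc, since metallothioneins also bind copper. Of 8 copper genes, all passed the filter and 1 was past 2-fold, at both times, beside 10.0% of all genes at 48 h and 8.31% at 72 h. It was *Atp7b*, a copper-exporting ATPase, with raw counts of 47 without and 112 with butyrate at 48 h, against 48 and 120 at 72 h, and log2 fold changes of 1.06 (0.58 to 1.60) and 1.43 (0.96 to 1.97). The median log2 fold change of the 8 copper genes was 0.28 after 48 h and 0.035 after 72 h. For the 8 zinc genes it was 0.22 and −0.21, so the shift at 48 h was not particular to them. Of 10 iron genes, *Cybrd1*, a ferric reductase, was lower at 48 h (115 against 58 counts; log2 fold change −1.15, −1.64 to −0.69) and had 45 and 58 counts at 72 h. *Slc11a2*, which encodes the divalent metal importer DMT1, had 7933 raw counts without and 8974 with butyrate at 48 h, against 3308 and 7556 at 72 h. Like *Slc30a10*, it was lowest in untreated organoids at 72 h, and its log2 fold change was 0.00 after 48 h (−0.04 to 0.05) and 1.32 after 72 h (1.26 to 1.38).

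The genes with the pattern most like that of *Mt1* were sought over the 4 libraries, among 10787 genes that averaged 100 or more normalised counts, by Euclidean distance of centred log2 values. They were *Ppp1r14d* (distance 0.04), *Tsku* (0.07), *Rita1* (0.07), *Hsd17b11* (0.07) and *Sec61g* (0.07). Of the zinc genes, *Mtf1* ranked 140th, *Slc39a4* 633rd and *Mt2* 2339th. This distance grows with the size of a change, and by Pearson correlation *Mt2* was nearer to *Mt1* than *Mtf1* was. For *Slc30a10*, the nearest were *Acvr2b* (0.05), *Zfp58* (0.21), *Sema4c* (0.22), *Gm14305* (0.25) and *Gm4459* (0.27). With 4 libraries, such likeness is a description of 4 values per gene.

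Markers of epithelial cell types moved between the same libraries. The 8 markers of absorptive colonocytes (*Slc26a3*, *Car1*, *Car4*, *Aqp8*, *Krt20*, *Guca2a*, *Slc9a3* and *Ceacam20*) summed to 33247 normalised counts without and 65176 with butyrate at 48 h, against 50542 and 31262 at 72 h. All 8 were higher with butyrate at 48 h (median log2 fold change 0.85), and 7 of the 8 were lower at 72 h (median −0.39). The sum, mostly from *Car1*, was highest and lowest in the treated libraries, as were *Mt1* and *Mt2*, but of the 8 markers this held for *Car1*, *Krt20* and *Slc9a3* only. The 5 stem cell markers (*Lgr5*, *Ascl2*, *Smoc2*, *Axin2* and *Sox9*) summed to 22200 without and 17768 with butyrate at 48 h, against 14682 and 22561 at 72 h. Of the 5, 2 were higher with butyrate at 48 h and 4 at 72 h. The sum was lowest in untreated organoids at 72 h, as was *Slc30a10*, but *Lgr5* was lowest with butyrate at 48 h and *Sox9* with butyrate at 72 h. The 6 goblet cell markers summed in the same order to 95774, 77257, 148440 and 78694, mostly from *Muc2* (73062, 52053, 119430 and 65481). At 48 h, 3 of the 6 were higher and 3 lower with butyrate, and at 72 h all 6 were lower. The 5 enteroendocrine markers summed to 7697, 9075, 9598 and 5246, and the 5 Paneth cell markers to 24225, 24995, 18313 and 18729. Of the enteroendocrine markers, 4 were higher and 1 lower with butyrate at 48 h, and all 5 were lower at 72 h. Of the Paneth cell markers, 2 were higher and 3 lower at 48 h. At 72 h, 3 were higher and 2 lower, these 2 (*Defa24* and *Itln1*) past 2-fold. Immune markers summed to 41.7 to 71.3 per library, fibroblast markers to 15.1 to 21.8 (*Col3a1* at 0 in all 4 libraries) and endothelial markers to 28.1 to 53.3. The part of these cell types in the zinc genes' values was not tested.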

How the data were processed

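The authors deposited whole-number counts per gene, which are rounded estimated counts from a kallisto-based pseudoalignment (kallisto 0.44.0 and GRCm38.p6 in the submitters' processing notes) summed to genes with tximport, without normalisation or filter. Libraries were poly-A selected. The transcriptome release and strandedness are not given in the sources used here. The table has 36144 names, of which 26 had been turned into dates and 2 were listed more than once, whose rows were left out, and 14902 rows had no count. As in the study's methods, the 13977 genes above 10 counts in 2 or more libraries were kept.

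Size factors came from DESeq2 1.42.0 and TMM factors from edgeR 4.0.16 (R 4.3.3). Fold changes, exact Clopper-Pearson 95% intervals (Poisson variance for differences of changes), levels per kb of GENCODE M21 exons and promoter matches were computed in Python 3.11.15 with scipy 1.17.1. The calculations were tested on simulated data. Precision is limited by counts: 3 counts are 0.124 to 0.144 CPM.

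The genes, lists and tests were chosen with earlier results of these data known. Named were the 8 genes, other zinc genes past 2-fold or among the 2 highest of each family by level, copper and iron genes past 2-fold, and the 5 nearest patterns to *Mt1* and *Slc30a10*; exceptions are stated. Of the marker lists, 2 genes are not reported here. Alternatives were other scalings, pseudocounts, filters, thresholds, lengths and measures of likeness.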

Additional observations from a re-analysis of the deposited data

Results flagged for a closer look

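For 9 zinc, copper and iron genes that passed the count filter and are described in the report, the change with butyrate had opposite signs at 48 h and 72 h. Each value rests on a pair of libraries, and the difference between the times was not tested. The log2 fold change at 72 h minus that at 48 h was −0.74 for *Mt1*, −0.90 for *Mt2*, −0.43 for *Mtf1*, −0.27 for *Slc39a4* and −0.82 for *Slc39a5*. It was 1.22 for *Slc30a10*. Among other metal genes it was −0.25 for *Slc30a4*, −0.15 for *Slc39a1* and 1.63 for *Cybrd1*. The intervals of counting error excluded 0 at both times for *Mt1*, *Mt2*, *Mtf1* and *Slc30a10* of these 9. With total count scaling *Slc39a4* had 0.001 at 72 h and with TMM *Slc39a1* had −0.003 at 48 h, so that their opposite signs were lost. Other genes of the copper and iron lists also turned, among them the copper chaperone gene *Ccs*, named after its values were seen, with 0.23 (0.02 to 0.45) after 48 h and −0.27 (−0.50 to −0.05) after 72 h.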

How the results depend on the processing

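No paired analysis was done, because the times were kept apart as conditions, which left 1 library against 1 library in each comparison. No replicate could be left out. Of 264 recomputed single values, 256 moved by less than counting error. The other 8 were all with scaling by the total count, and 3 of them changed sign: the median of the other zinc genes (0.003 at 48 h and 0.029 at 72 h) and *Slc39a4* over time in untreated organoids (−0.065). Counting those within counting error, 8 values changed sign, 6 with the total count and 2 with TMM, and *Slc30a10* over time with butyrate came to 0.00 with the total count. With total count scaling the log2 fold change of *Mt1* at 72 h was −0.23. TMM moved none beyond counting error.

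Counts past 2-fold depended on the filter and the threshold. With a filter at a mean of 50 normalised counts, which leaves out *Mt3*, 0 of the 8 genes were past 2-fold at 48 h, and the other zinc genes past it were 1 at 48 h, 1 at 72 h, 1 over time in untreated and 0 over time in butyrate-treated organoids. All genes past it were then 638, 458, 186 and 485 of 11650 in the same order. With no filter beyond at least 1 count they were 4329, 4005, 3224 and 4270 of 21238, and the other zinc genes past it were 3, 4, 3 and 2 of 20. At 1.5-fold, 2 of the 8 genes passed at 48 h (*Mt2* and *Mt3*), 3 at 72 h (*Mt3*, *Slc30a10* and *Slc39a5*) and 4 over time with butyrate (*Mt1*, *Mt2*, *Mt3* and *Slc39a5*), as did 4 other zinc genes at 48 h and 2 over time with butyrate. All genes past 1.5-fold were 3081, 2520, 1676 and 3014 of 13977. With total count scaling or a pseudocount of 5, 2 other zinc genes in place of 3 were past 2-fold at 72 h, without *Slc39a2*. With a pseudocount of 5, 1 other zinc gene and 396 genes in all were past 2-fold over time in untreated organoids. By mean transcript length *Mtf1* was 6th and *Slc30a10* 7th in level. Of the 5 genes nearest to *Mt1*, 1 was shared by Pearson correlation and 2 at a mean of at least 500, and for *Slc30a10* 1 and 0. Low counts limit *Mt3*, *Slc30a3* and *Slc39a2*.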
